A study of Drosophila melanogaster with 8 samples.

Results

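Of 13008 open chromatin regions that the authors compared across Drosophila larval tissues, 576 lay far from any gene. A region was taken as far when its centre was outside, and at least 10 kb away from, every RefSeq protein-coding gene body of genome build dm6. The arms X, 2L, 2R, 3L, 3R and 4 were used, without X and 2L above 22 Mb, 3L above 22.9 Mb and 3R below 4.2 Mb, where the arms run into repeat-rich pericentromeric DNA. The measured values took no part in the choice. The regions are called far regions here, and the stretch between the 2 protein-coding genes that flank them is called an interval and named by those genes. A flanking gene is a landmark, and no region was tied to a target gene. Beside a gene means in an interval that the gene flanks, and the other flanking gene can be nearer.

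Open chromatin was measured by FAIRE-seq, which sequences the DNA that stays in the aqueous phase when crosslinked chromatin is extracted with phenol and is therefore poor in nucleosomes. The 8 libraries formed 4 groups of 2, all from female wandering larvae of the third instar at -6 h relative to puparium formation (APF), with at least 40 dissected tissues per library. WT wing discs, WT leg discs and WT salivary glands were labelled +/+; +/+; +/+. EcR-RNAi wing discs alone were yw/yw and carried Vg-GAL4, UAS-Flp and Tub>>CD2>>GAL4 together with UAS-GFP and UAS-EcR-RNAi[104], so no control had the driver or the other transgenes. In that system Flp removes the CD2 cassette and GAL4 is then made from the tubulin promoter, so the hairpin against the ecdysone receptor gene EcR runs in cells with a history of Vg-GAL4 activity, and other cells of the disc still have EcR. Peak names in the gland list begin with EcRmimic, while OR stands in the WT wing and WT leg names; the labels do not explain the prefix, and another stock is possible for the gland. The word called marks regions with a log2 fold of at least 1 in size and an adjusted p below 0.05 in the authors' deposited table of a comparison. FAIRE-seq does not measure RNA, so the knockdown itself was not checked: of 21 regions nearest to EcR, 1 was called higher in WT wing and 2 higher in EcR-RNAi wing. The tissue labels were checked at regions nearest to genes that mark each tissue: 6 of 8 at vg, the wing selector gene, were higher in WT wing than in WT leg, 13 of 20 at Ubx, the Hox gene of the hind leg segment, were higher in WT leg than in WT wing, and at fkh, which sets salivary gland identity, 3 of 4 were higher in gland than in WT leg and 2 of 4 higher than in WT wing. No region was nearest to Sgs4, a glue protein gene of the gland. The signal is an average over a whole tissue, so a site open in fewer cells and a site less open in each cell cannot be told apart. All 8 libraries are FAIRE libraries, so the number of DNA copies at a site was not measured. In comparisons with gland, a difference in copy number and one in openness cannot be told apart.

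Imaginal discs are the larval sheets of cells that become the adult appendages, while the salivary gland is a secretory tissue of polyploid cells. Genes that pattern discs, such as transcription factors and receptors, are often controlled by many separate enhancers, short stretches of DNA that bind transcription factors, are poor in nucleosomes when active, and can lie many kilobases from the promoter. In the compact fly genome such genes are often flanked by long stretches without other coding genes, where those enhancers sit.

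The space at least 10 kb from protein-coding genes came to 9.42 Mb, or 7.79% of the 120.9 Mb spanned by the kept arms, counted in gaps between coding genes. It held 571 far regions, 4.44% of the 12866 regions in that span, and the other 5 lay beyond the last gene of an arm. The density was 60.6 far regions per Mb, against 106 regions per Mb over the whole span. Far regions lay in 155 intervals with a median length of 37.1 kb, of which 56 held 1 far region and 46 held 5 or more. Those 46 intervals held 371 of the 576, while 153 of the 453 gaps of over 20 kb between coding genes held any. By arm, 208 were on 3L, 125 on 2L, 106 on 3R, 72 on 2R, 61 on X and 4 on 4. The median distance to a gene was 15966 bp (quartiles 12279 and 22120 bp), and 182 of the regions were at least 20 kb away. Far regions were much like other regions in size and signal: the median width was 560.5 bp against 509.5 bp for all regions, and the authors' deposited tables give a median mean normalized count of 119 against 120.2. The widest was chr3R:10472857-10474902, 2046 bp long, in the interval from Cyp12e1 to hth, and the farthest was chr3L:10343145-10344141, 69019 bp from Or67d. Around the limit itself, the nearest regions inside were chr3L:3389887-3390279 between Ids and sty at 10000 bp and chr2R:8317360-8317589 between CG30371 and pdm3 at 10015.5 bp, and the nearest outside were chr3L:816579-816870 between CG13898 and Sf3b3 at 9995.5 bp and chrX:4380685-4381584 between CG3626 and bi at 9998.5 bp.

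Most far regions carried a peak in the discs and few carried one in the gland. Of the 576, 521 (90.5%, 95% Wilson interval 87.8 to 92.6) were overlapped by a merged peak of WT wing, 508 (88.2%, 85.3 to 90.6) by one of WT leg and 499 (86.6%, 83.6 to 89.2) by one of EcR-RNAi wing. A gland peak overlapped 82 (14.2%, 11.6 to 17.3). Over all 13008 regions the shares were 84.6%, 82.9%, 81.8% and 53.5% in the same order. A peak in wing and leg with none in gland was found at 433 far regions, and a gland peak with none in wing or leg at 25. Both counts are given without a share over all regions and are description only. The intervals cover counting error only. The gland peak list alone has a size range in its name, which the disc lists lack. Its part in the lower share of gland peaks was not tested. The peaks at far regions were near those at all compared regions in strength. Their median fold enrichment, the authors' own value per peak, was 4.95 in WT wing, 5.01 in WT leg, 4.08 in EcR-RNAi wing and 4.56 in gland, where the medians over all compared regions with a peak were 4.58, 4.69, 4.29 and 4.88.

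**Figure D1:**
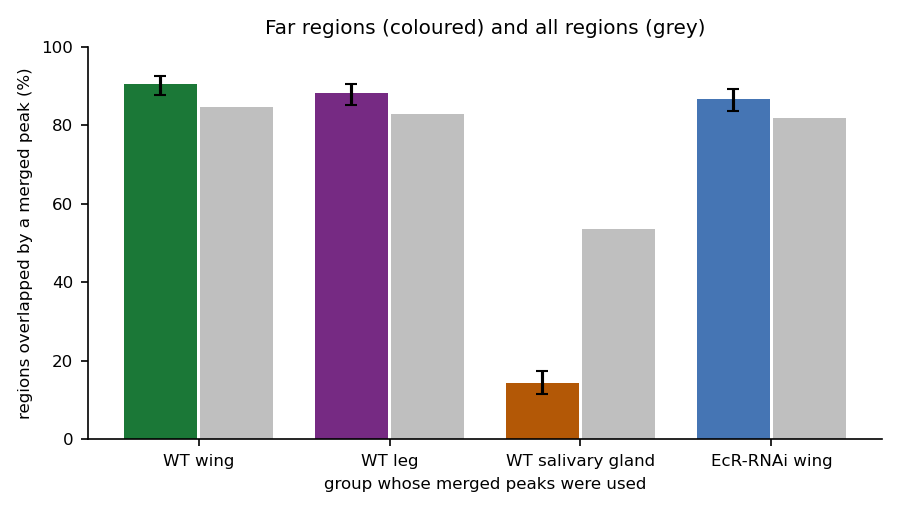
Percent of regions (y axis) overlapped by at least 1 bp of a merged peak of each group (x axis), for the 576 far regions (coloured bars, with 95% Wilson intervals) and for all 13008 regions (grey bars). The share in gland is 14.2% for far regions and 53.5% for all regions, while the shares in the 3 disc groups lie between 81.8% and 90.5% in both sets.

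The comparison tables hold no value per library, so the level of a region in each group was derived from the mean normalized count and the 4 folds of the authors' deposited table, and is given in normalized counts. The medians of these levels over the far regions were 140.1 in WT wing, 130.1 in WT leg, 67.5 in gland and 121 in EcR-RNAi wing, against 122, 121, 103 and 119.5 over all regions. The lowest median of the far regions was that of gland. A fold is given on the log2 scale with its standard error (SE), first group over second. At least 1 call was made at 428 far regions, and none at 148, with no share over all regions to set beside these counts.

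Wing discs were compared with salivary glands to find chromatin that differs between an appendage primordium and a secretory tissue. Of the 576 far regions, 309 (53.6%) were called higher in WT wing and 35 (6.08%) higher in gland, where 21.1% and 12.7% of all regions were called. The median log2 fold of wing over gland was 1.06 at far regions and 0.18 over all regions in the authors' deposited table. Between leg and gland, 276 (47.9%) were higher in WT leg and 39 (6.77%) in gland, beside 22.6% and 13.3% of all regions, and the medians in the authors' deposited table were 0.97 and 0.17. Both comparisons share the gland libraries. Together they placed 211 far regions higher in both discs than in gland and 34 higher in gland than in both discs, and at no far region were the calls for the 2 discs opposite in sign. These joint counts are given without a share over all regions and only describe the far regions. The median fold of all regions was itself above 0 by 0.18 and 0.17, and subtracting it changed the share of calls higher in the disc from 89.8% to 86.3% in wing and from 87.6% to 84.8% in leg.

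**Figure D2:**
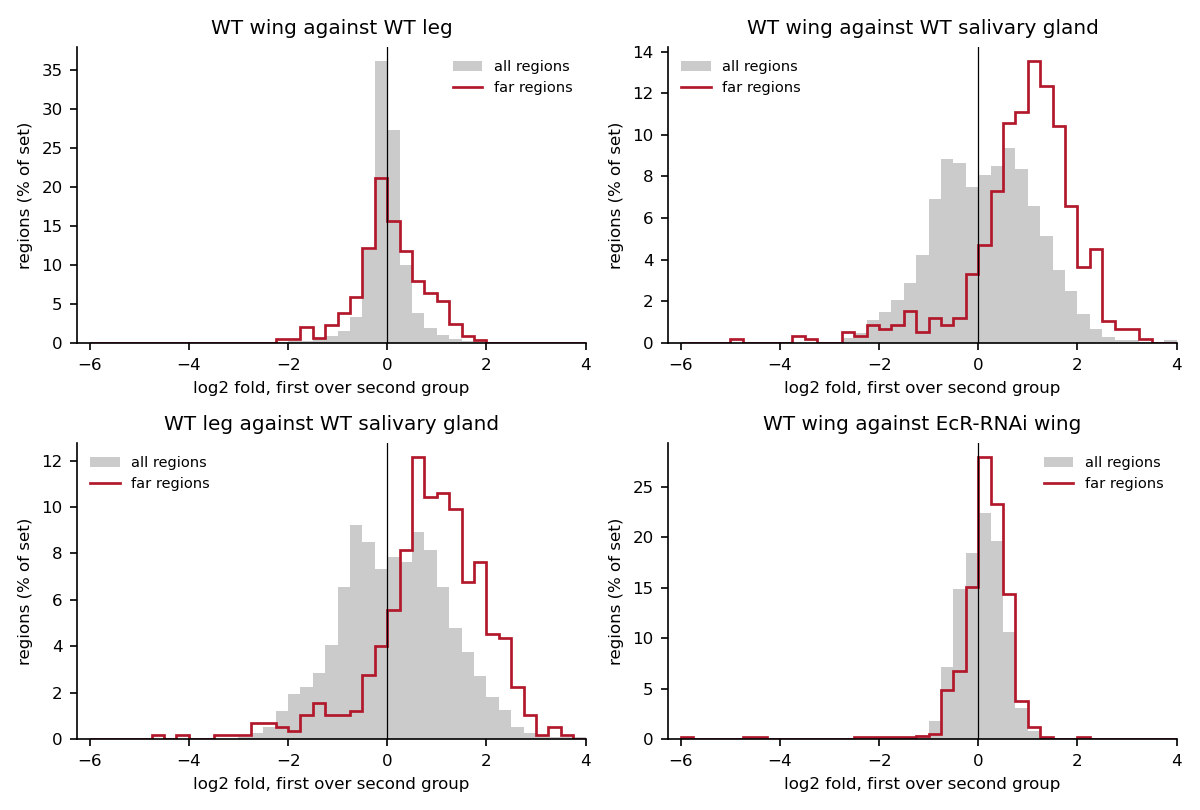
Distribution of the log2 fold in the authors' deposited table of each comparison (x axis, first over second group, bins of 0.25) as percent of the set (y axis), for the 576 far regions (red line) and all 13008 regions (grey). The far regions lie to the right of all regions in both comparisons with gland, with medians of 1.06 and 0.97 against 0.18 and 0.17, and are wider spread in wing against leg.

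The 6 largest folds of wing over gland, among calls with at least the median count of all regions, included 1 beside kek1 and 3 beside Tollo. At chr2L:12840651-12841373, 18225 bp from kek1, whose product is an antagonist of the EGF receptor, the level was 419 in WT wing, 281 in WT leg, 41.7 in gland and 270.3 in EcR-RNAi wing. The log2 fold of wing over gland there was 3.33 (SE 0.21, adjusted p = 1.79e-51) in the authors' deposited table. Wing was highest and gland lowest at this site, with leg and EcR-RNAi wing between. Between Tollo, a gene of the Toll receptor family, and Best4 lay 4 far regions, of which 3 were among the 6 with the largest folds. The strongest of them, chr3L:15260048-15261959, had a level of 843 in WT wing, 858 in WT leg, 97.8 in gland and 731 in EcR-RNAi wing. Its folds over gland in the authors' deposited table were 3.11 (SE 0.15, adjusted p = 8.97e-96) for wing and 3.13 (SE 0.15, adjusted p = 1.7e-95) for leg. The 3 disc groups lay between 731 and 858 there and gland far below. At the other two, the folds of leg over gland were 3.47 and 3.48 in the authors' deposited table.

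Long intervals repeated this pattern along their length. All 13 far regions between CG15258 and CG44869, a 56.3 kb gap on 2L, were called higher in wing than in gland and 11 of them higher in leg, with a median log2 fold of 2.30 for wing in the authors' deposited table. The strongest, chr2L:15384984-15385544, had a level of 259 in WT wing, 344 in WT leg, 28.7 in gland and 208 in EcR-RNAi wing, and leg over gland was 3.58 (SE 0.21, adjusted p = 9.25e-60) in the authors' deposited table. From CG7320 to CheA75a, a gene of a chemosensory protein family, 10 of 11 were higher in each disc, and chr3L:18240368-18241054 reached 3.01 for wing and 3.34 for leg in the authors' deposited table. The 117 kb interval from vvl, a POU domain factor of wing veins and tracheae, to Prat2 held 18 far regions, of which 16 were higher in wing and 10 in leg. Its strongest leg site, chr3L:6846545-6847490, had a level of 418 in WT wing, 459.6 in WT leg, 59.8 in gland and 371 in EcR-RNAi wing. From NijA to CG43245, also with 18 far regions, 11 were higher in wing and 10 in leg than in gland. Beside tsh, a zinc finger gene of trunk and proximal appendages, all 9 of the interval to CG11629 were higher in wing and 7 in leg. Between CG4161 and sna, a zinc finger gene of the mesoderm, all 7 were higher in both. Beside bi (optomotor-blind), a T-box gene of the wing, all 8 of the interval from CG3626 were higher in wing and 5 in leg. All 8 from Cyp12e1 to hth, the homeobox gene of proximal limbs, were higher in wing, and 4 in leg.

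Not every long interval followed it. A long one, 138 kb from the odorant receptor gene Or67d to CG12362, held 15 far regions, of which 1 was called higher in wing, 1 higher in gland and 2 higher in leg. Its 15 folds of wing over gland ran from -1.24 to 1.43 in the authors' deposited table, with a median of 0.67. The 18 far regions from plh to corto, a 66.7 kb gap on 3R, gave 2 calls for wing and 2 for gland, with a median of 0.53 in the authors' deposited table. In the interval from hng3 to CG13898 none of 11 was higher in either disc and 5 were higher in gland, at mean normalized counts between 25.5 and 78.2 in the authors' deposited table.

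Far regions higher in gland were few. The median gland level was 126 normalized counts at the 33 of the 35 gland calls that have a level, where the median wing level was 187 at the 309 calls for wing. Of the 35, 26 (74.3%) lay in intervals with 2 or more of them, as did 268 (86.7%) of the 309. Calls for gland over wing numbered 5 from hng3 to CG13898. They also numbered 5 from Ir41a, an ionotropic receptor gene, to TpnC41C, a troponin C gene, on 2R. In this last interval all 5 far regions were higher in gland than in both discs. The strongest of these, chr2R:5049649-5050418, had a level of 81.9 in WT wing, 91.8 in WT leg, 542 in gland and 51.6 in EcR-RNAi wing. Its log2 fold of wing over gland was -2.73 (SE 0.20, adjusted p = 5.22e-39) in the authors' deposited table, and gland alone was high. Between CG3107 and gus, a SOCS box gene, chr2R:5106471-5107393 had a level of 47.7 in WT wing, 42.6 in WT leg, 229 in gland and 199 in EcR-RNAi wing, with gland and EcR-RNAi wing high and the WT discs low. Its fold of wing over gland was -2.26 (SE 0.43, adjusted p = 9.06e-07) in the authors' deposited table. Close to fkh, the interval from mIF2 held 2 far regions. Leg over gland there was -1.05 (SE 0.21, adjusted p = 3.4e-06) at chr3R:28563139-28563903 and -1.60 (SE 0.34, adjusted p = 1.76e-05) at chr3R:28567992-28568365 in the authors' deposited table. At scyl, an inhibitor of TOR signalling, chr3L:11272241-11272664 had a wing over gland fold of -2.18 (SE 0.34, adjusted p = 3.29e-09) in the authors' deposited table, and beside luna, a Krueppel-like factor gene, chr2R:10956147-10956303 had -1.81 (SE 0.41, adjusted p = 8.88e-05). The sites at fkh, scyl and luna were named after their values were seen. Of the far regions called higher in gland than wing, 30 of 35 carried a gland peak, and of the 309 higher in wing 12 did. Peaks and folds draw on the same gland libraries, so these counts are no separate support for the calls. In the interval from CG9932 to Ttc30 both kinds stood close together: leg over gland was -1.34 (SE 0.21, adjusted p = 3.33e-09) at chr2L:13078347-13079119 in the authors' deposited table, while farther to the right a site was highest in wing.

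A set of 28 far regions lay within 0.5 Mb of the first or last coding gene of an arm, on 4, or on 2R below 6 Mb. They held 16 of the 35 calls for gland over wing and 16 of the 39 for gland over leg, but 6 of the 309 for wing and none between wing and leg. Without them 19 and 23 calls for gland were left. The set was chosen after the data were seen, so its counts only describe where the calls lay. Keeping only regions with a mean normalized count of at least 70.8, the lower quartile of all regions, left 14 and 16 calls for gland. That mean takes in 6 disc libraries and 2 gland libraries, so sites open in gland alone have a low mean by construction.

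The share of regions called higher in a disc was lower inside genes and within 2 kb of them than farther out, and for wing it was highest at 20 kb or more. Wing was called higher than gland at 15.5% of the 9052 regions inside a gene, 22.3% of the 2172 within 2 kb outside, 42.6% of the 1072 at 2 to 10 kb, 50.8% of the 394 at 10 to 20 kb and 59.9% of the 182 at 20 kb or more. For leg over gland the shares were 16.9%, 24.8%, 46.2%, 48.0% and 47.8%. Gland was called higher than wing at 15.3%, 8.15%, 4.10%, 6.60% and 4.95%. From 2 kb outward the 95% Wilson intervals of the 3 classes overlapped for leg over gland. For wing over gland those at 10 to 20 kb (45.8 to 55.7) and at 20 kb or more (52.6 to 66.7) overlapped. The one at 2 to 10 kb (39.7 to 45.6) overlapped neither. Regions of 1 interval are neighbours on the chromosome and were not independent draws, so these intervals cover counting error only.

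**Figure D3:**
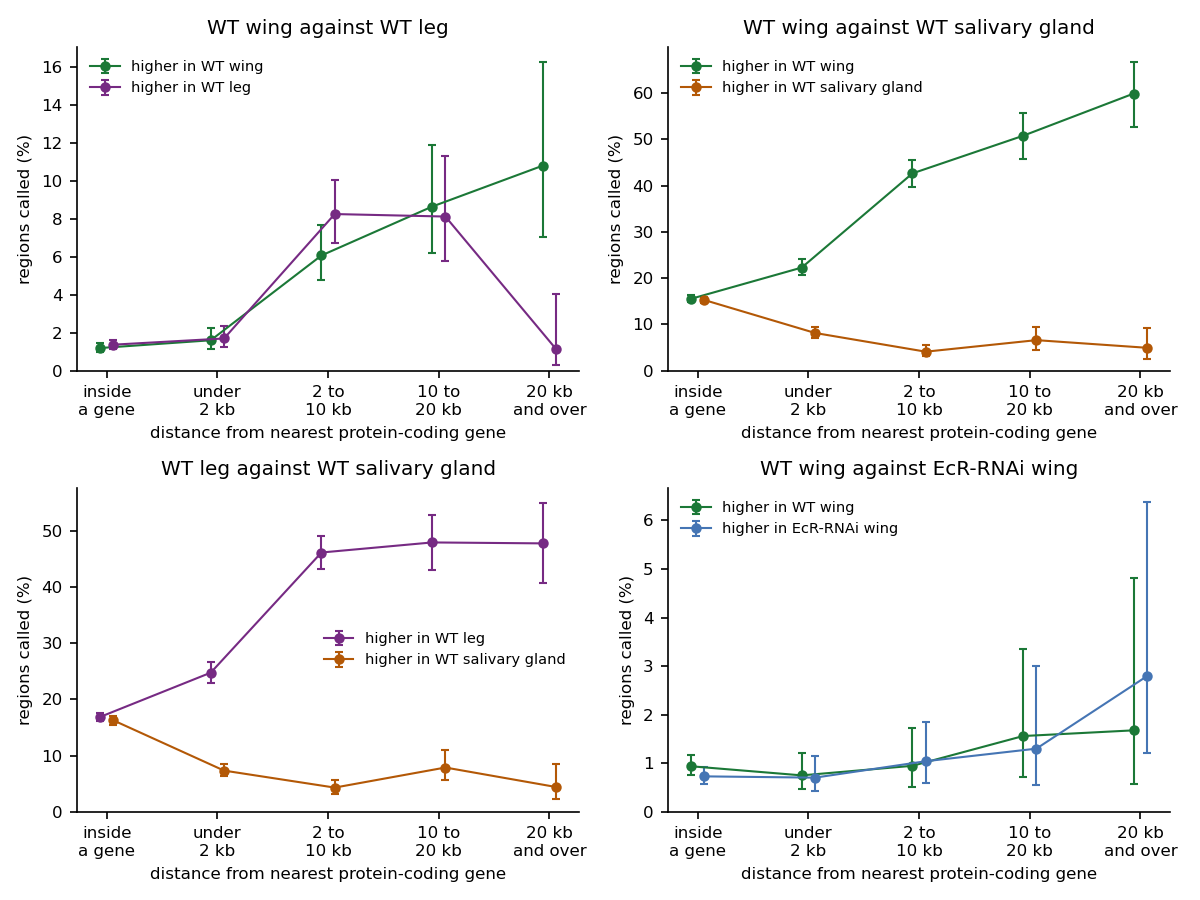
Percent of regions called (y axis) in 5 classes of distance from the nearest protein-coding gene (x axis) in each comparison, by the group with the higher signal, with 95% Wilson intervals for counting error. Calls for the discs over gland go from 15.5% and 16.9% inside genes to 59.9% and 47.8% at 20 kb or more, and calls for leg over wing fall from 8.12% at 10 to 20 kb to 1.14% at 20 kb or more.

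Wing and leg discs are serially related appendage primordia, and their comparison asks which open sites differ between the 2 limbs. Of 558 far regions with an adjusted p, 52 (9.32%) were called higher in WT wing and 33 (5.91%) higher in WT leg, where 2.04% and 2.21% of all regions were called. The wing calls fell in 34 intervals and the leg calls in 20. Shares above those of all regions were not particular to far regions. Of 1055 regions at 2 to 10 kb from a gene, 6.07% were called higher in wing and 8.25% higher in leg. Inside genes the shares were 1.19% and 1.37%. Of the 52 higher in wing, 42 were also called higher in wing than in gland and 7 higher in leg than in gland. Of the 33 higher in leg, 31 were higher in leg than in gland and 5 higher in wing than in gland. These comparisons share libraries, and the counts are given only as a description of these regions.

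Genes of wing patterning flanked 10 of the wing calls. Between salr and salm, the Spalt zinc finger genes that act in the central wing pouch downstream of Dpp, all 8 far regions had a fold above 0 in the authors' deposited table, from 0.53 to 1.72, and 3 were called higher in wing. The strongest, chr2L:11401955-11402390, had a level of 101 in WT wing, 30.7 in WT leg, 47.8 in gland and 51.3 in EcR-RNAi wing. Its fold of wing over leg was 1.72 (SE 0.29, adjusted p = 3.86e-07) in the authors' deposited table, and WT wing alone was high. Between caup and mirr, Iroquois homeobox genes that pattern the dorsal wing disc, 3 of 8 were called. The strongest in signal, chr3L:12660368-12662186, is 1819 bp long and lies 32362 bp from mirr. Its level was 574 in WT wing, 204 in WT leg, 174 in gland and 454 in EcR-RNAi wing, and the fold was 1.49 (SE 0.17, adjusted p = 3.49e-16) in the authors' deposited table. The pair of wing groups was high and leg and gland were low. In the same interval chr3L:12652222-12652648 was called with 1.51 (SE 0.29, adjusted p = 1.4e-05) in the authors' deposited table, while the next region, chr3L:12652871-12653506, had -0.14 (SE 0.18, adjusted p = 0.883). That neighbour was chosen after its values were seen.

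The densest wing cluster lay between Osi21, a gene of the Osiris family of membrane proteins, and CG14926 on 2L. There 7 of 9 far regions were called higher in wing, at folds from 1.09 to 1.81 in the authors' deposited table, and none was called between leg and gland. Its strongest site, chr2L:11307695-11308311, had a level of 224 in WT wing, 63.8 in WT leg, 77.0 in gland and 153 in EcR-RNAi wing, with a fold of 1.81 (SE 0.23, adjusted p = 1.66e-12) in the authors' deposited table. The highest fold of all was at chr2L:13095665-13096391, 10779 bp from Ttc30, with a level of 208 in WT wing, 58.2 in WT leg, 112 in gland and 208 in EcR-RNAi wing and a fold of 1.84 (SE 0.22, adjusted p = 6.43e-14) in the authors' deposited table. There gland lay between the discs. Beside drl, which encodes a receptor for the Wnt5 ligand, chr2L:19225628-19226494 had a level of 347 in WT wing, 105 in WT leg, 95.8 in gland and 326 in EcR-RNAi wing, and the fold was 1.72 (SE 0.18, adjusted p = 2.01e-18) in the authors' deposited table. Both wing groups were high and leg and gland low. Both far regions between ems, a homeobox gene of head and spiracles, and Art9 were higher in wing, with folds of 1.49 and 1.25 in the authors' deposited table. The latter, chr3R:13921007-13922699, had a level of 697 in WT wing, 294 in WT leg, 191 in gland and 457 in EcR-RNAi wing.

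Other wing calls stood beside further patterning genes. Beside the homeobox gene Dr, chr3R:29574974-29575633 had a fold of 1.42 (SE 0.21, adjusted p = 7.08e-10) in the authors' deposited table, and beside drm, an Odd-skipped family gene of leg joints, chr2L:3558958-3559637 had 1.35 (SE 0.21, adjusted p = 1.21e-08). In the interval from tsh to CG11629, 2 of 9 were called higher in wing, at folds of 1.17 and 1.00 in the authors' deposited table, while chr2L:21857555-21858117 had -0.90 (SE 0.20, adjusted p = 0.000261) and did not pass the fold limit; it was named after its values were seen. On the side of hth towards CG6465, chr3R:10658470-10658799 was called higher in wing with 1.06 (SE 0.27, adjusted p = 0.00205) in the authors' deposited table, and chr3R:10662045-10662776 in the same interval was called higher in leg with -1.10 (SE 0.21, adjusted p = 7.47e-06). Single wing calls in the authors' deposited table stood in intervals flanked by vvl (1.15), knrl (1.15), a vein gene of the nuclear receptor type, and Eip93F (1.04), an ecdysone-induced temporal factor. The vvl site lay 79753.5 bp from vvl and 37304.5 bp from Prat2. The knrl site lay 38786.5 bp from knrl and 17937.5 bp from Rcd2. The Eip93F site lay 14774 bp from Eip93F and 18794 bp from Qsox2.

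Genes of leg patterning flanked 17 of the 33 leg calls. The largest fold was 16125 bp from CG14020 and 34002 bp from mid, a T-box gene of the ventral leg, at chr2L:5501063-5502161. The level there was 127 in WT wing, 555 in WT leg, 96.8 in gland and 110.4 in EcR-RNAi wing, and the fold was -2.12 (SE 0.18, adjusted p = 1.53e-29) in the authors' deposited table. Leg alone was high and the other 3 groups were near each other. On the interval from mid to CG14020, 3 of 9 far regions were called higher in leg and all 9 had a fold under 0 in the authors' deposited table. On its other side, between mid and its paralog H15, 2 of 7 were called, and between nompC and H15 2 of 3. At chr2L:5426747-5427667, 10614 bp from H15, the level was 141 in WT wing, 454 in WT leg, 82.1 in gland and 85.8 in EcR-RNAi wing, with a fold of -1.69 (SE 0.20, adjusted p = 2.38e-14) in the authors' deposited table.

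Between bab1 and bab2, BTB domain genes of the tarsal segments, 3 of 4 far regions were called higher in leg. The strongest, chr3L:1129812-1130520, had a level of 99.8 in WT wing, 403 in WT leg, 83.5 in gland and 106 in EcR-RNAi wing, with a fold of -2.01 (SE 0.18, adjusted p = 2.38e-25) in the authors' deposited table. Between btd and Sp1, zinc finger genes that specify the leg, 3 of 4 were called as well. There chrX:9717978-9718928 had a level of 103 in WT wing, 397 in WT leg, 96.2 in gland and 96.2 in EcR-RNAi wing and a fold of -1.94 (SE 0.19, adjusted p = 1.38e-21) in the authors' deposited table. At both sites leg stood above the 3 other groups. Between lbe, the homeobox gene ladybird early, and Fancm, 3 of 5 were called, with folds of -1.72, -1.71 and -1.16 in the authors' deposited table. Both far regions from Lim1, a LIM homeobox gene of the leg, to CG12075 were called, and so was chr2R:11545224-11545732 beside en, the selector gene of posterior compartments, with -1.58 (SE 0.27, adjusted p = 4.47e-07) in the authors' deposited table. A further leg call stood beside a cuticle protein gene: chr2L:14436691-14437709, between Cpr35B and CG15283, had a level of 129 in WT wing, 498 in WT leg, 173 in gland and 139 in EcR-RNAi wing and a fold of -1.95 (SE 0.18, adjusted p = 1.32e-24) in the authors' deposited table.

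In the bithorax region, the interval from CG31275 to Glut3 held 6 far regions, 4 of them inside bxd, a long non-coding RNA gene next to Ubx. All 6 were called higher in leg than in gland, 3 were called higher in leg than in wing, and all 6 folds of wing over leg were under 0 in the authors' deposited table, from -0.41 to -2.11. The strongest, chr3R:16766904-16767466, had a level of 33.7 in WT wing, 145 in WT leg, 20.5 in gland and 33.8 in EcR-RNAi wing and a fold of -2.11 (SE 0.31, adjusted p = 1.59e-09) in the authors' deposited table. The sites with folds of -1.54 and -1.55 had no adjusted p in the authors' deposited table, at mean normalized counts of 23.04 and 23.46. The pair was named after its values were seen.

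**Figure D4:**
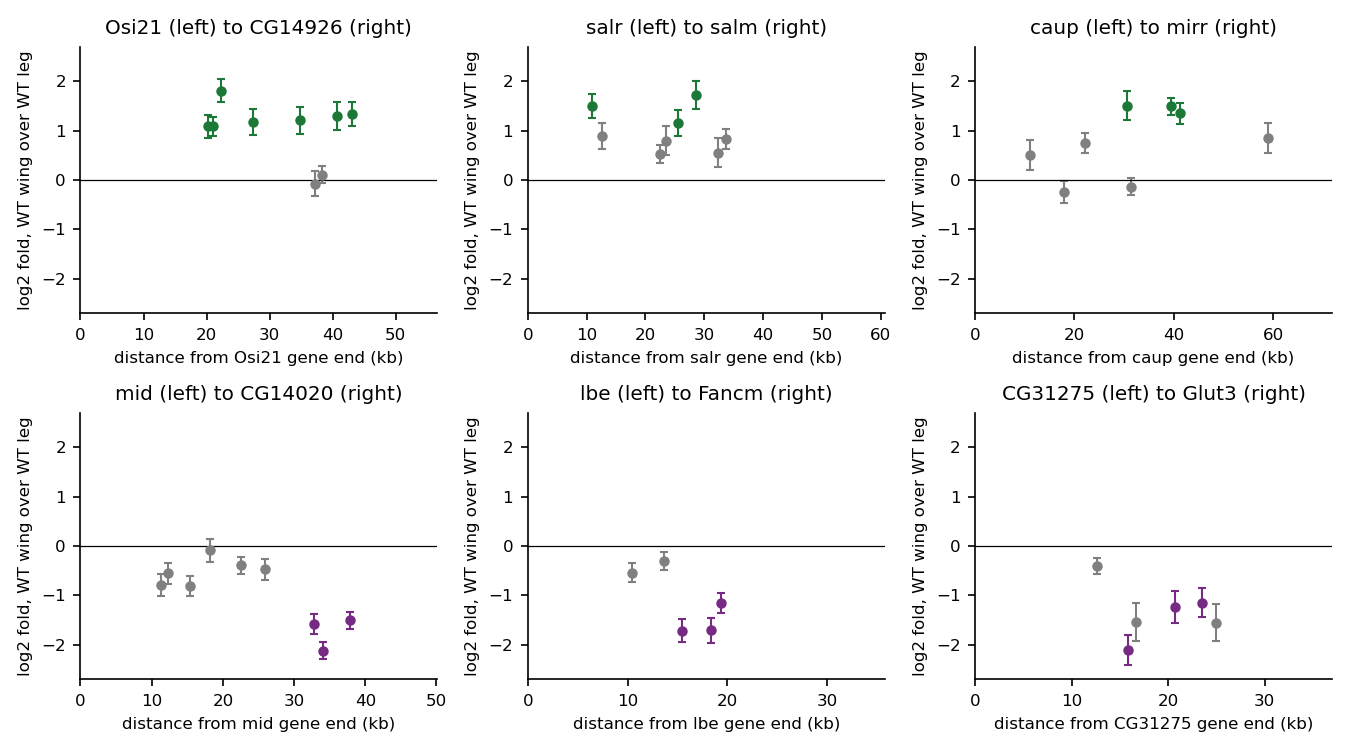
Log2 fold of WT wing over WT leg (y axis, with its SE, from the authors' deposited table) for each far region against the distance of its centre from the left flanking gene (x axis, kb) in 6 intervals. Calls for wing are green, calls for leg purple and other regions grey; 7 of 9 are called for wing from Osi21 to CG14926, and 3 each for leg from mid to CG14020, lbe to Fancm and CG31275 to Glut3.

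By gene list, 50 far regions in 11 intervals had a wing disc regulator on at least 1 side. Of the 50, 10 (20%) were called higher in wing and 1 higher in leg, with a median fold of 0.57 in the authors' deposited table, against 9.32% and 5.91% and a median of 0.01 over all far regions. Of the 67 in 18 intervals with a leg disc regulator, 5 (7.46%) were higher in wing and 17 higher in leg, with a median of -0.31 in the authors' deposited table. The shares higher than gland over all far regions, 53.6% in wing and 47.9% in leg, are the background for the following counts. Beside wing disc regulators 34 of 50 (68.0%) were higher in wing and 18 (36.0%) in leg, and beside leg disc regulators 39 of 67 (58.2%) in wing and 45 (67.2%) in leg. None of either list was higher in gland. Tracheal regulators flanked 29, mostly beside vvl, with 26 (89.7%) higher in wing and 18 (62.1%) in leg than in gland. Of 18 flanked by a neuronal adhesion or wiring gene, 15 (83.3%) were higher in wing and 16 (88.9%) in leg than in gland, and none was called between the discs. Salivary gland genes flanked 16, of which 11 (68.8%) were higher in wing and 6 (37.5%) in leg than in gland, and 1 was higher in gland than in wing and 2 than in leg. This list holds hth, which is also a listed leg disc regulator. The interval from Cyp12e1 to hth alone gave 8 of the 16, all 8 higher in wing and 4 in leg than in gland. The share of 58.2% is near that of all far regions. The other lists flanked 20 (homeobox, T-box, Sox and forkhead regulators), 5 (ecdysone response genes), 4 (Hox genes), 4 (proneural genes), 3 (myoblast genes) and 1 (cuticle and matrix genes). Among those 20, 2 were called higher in wing than in leg and 3 higher in leg than in wing. Against gland, 5 (25.0%) of the 20 were higher in wing and 7 (35.0%) in leg. Gland was higher than wing at 2 of them and higher than leg at 3. Most far regions, 379 in 102 intervals, had no listed gene on either side, and 32 (8.84%) of these were called higher in wing than leg and 11 (3.04%) higher in leg. The lists overlap, several regions share an interval and therefore a gene, and the lists were written with earlier results of these data known.

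Leg calls were few beyond 20 kb, and this difference from the wing calls was not tested. At 10 to 20 kb from a gene 33 of 382 tested far regions (8.64%) were higher in wing and 31 (8.12%) in leg, while at 20 kb or more it was 19 of 176 (10.8%, 95% Wilson interval 7.02 to 16.2) and 2 of 176 (1.14%, 0.312 to 4.05). The 19 wing calls fell in 11 intervals, 5 of them from Osi21 to CG14926 and 3 from caup to mirr, and the 2 leg calls in the intervals from CG11041 to CG16894 and from CG13300 to CG42747. When distance was taken from every listed gene, non-coding ones included, 219 regions were left and 3.79% of these with an adjusted p were higher in wing. Without a limit on the fold 101 far regions were higher in wing and 66 in leg at an adjusted p under 0.05, and at a log2 fold of at least 1.5 the counts were 7 and 16.

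Neighbouring sites could differ in opposite directions. In the interval from CG13300 to CG42747, chr3L:6376848-6377297 was higher in wing with 1.37 (SE 0.28, adjusted p = 6.41e-05) in the authors' deposited table. The next region, chr3L:6377409-6378125, begins 112 bp farther on and was higher in leg with -1.10 (SE 0.22, adjusted p = 1.54e-05), in the authors' deposited table. The levels were 109 in WT wing, 42.2 in WT leg, 29.9 in gland and 68.7 in EcR-RNAi wing at the former and 97.5 in WT wing, 209 in WT leg, 57.4 in gland and 121 in EcR-RNAi wing at the latter. Between Alp13 and Fmr1, which encodes the fly homolog of the fragile X protein, regions 614 bp apart had folds of wing over gland of -1.59 (SE 0.28, adjusted p = 8.24e-08) and 1.17 (SE 0.15, adjusted p = 1.5e-13) in the authors' deposited table. These pairs were picked after their values were seen. Of 421 neighbouring pairs of far regions, 170 were under 1 kb apart, and intervals with calls in both directions numbered 3 between wing and leg, 5 between wing and gland and 4 between leg and gland.

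The comparison of WT wing with EcR-RNAi wing asks which sites change when the ecdysone receptor, the nuclear receptor for the hormone that drives metamorphosis, is depleted. Few far regions were called: 9 of 564 (1.60%) were higher in WT wing and 10 (1.77%) higher in EcR-RNAi wing, where 1.24% and 0.789% of all regions were called. The median log2 fold of WT over EcR-RNAi was 0.20 at far regions and 0.08 over all regions in the authors' deposited table. The calls higher in WT wing made up 47.4% of the 19, and 27.8% when the folds were centred on the median of all regions, which left 5 such calls. The share of 1.60% is near the 1.24% of all regions, which include the left-out chromosome ends. On the kept arms alone, 0.934% of 12419 regions were called higher in WT wing and 0.797% higher in EcR-RNAi wing. None of the 9 was called between wing and leg, and 6 of them were called higher in wing than in gland.

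The largest fold towards WT wing was beside tweek, 10515 bp away, in the interval to beat-IIIb, a gene of the Beaten path family of axon guidance proteins. At chr2L:16927243-16927891 the level was 253 in WT wing, 294 in WT leg, 59.4 in gland and 56.4 in EcR-RNAi wing, and the fold of WT over EcR-RNAi wing was 2.16 (SE 0.23, adjusted p = 2.17e-17) in the authors' deposited table. Both WT discs were high there, and EcR-RNAi wing was at the level of gland. Between CG5290 and Eip75B, an ecdysone-induced nuclear receptor gene, chr3L:17922670-17923144 lay 10342 bp from CG5290 and 28046 bp from Eip75B. Its level was 97.9 in WT wing, 98.9 in WT leg, 49.8 in gland and 48.6 in EcR-RNAi wing. Its fold was 1.01 (SE 0.27, adjusted p = 0.00503) in the authors' deposited table. Beside Antp, the Hox gene of thoracic and leg identity, chr3R:7024795-7025335 had a level of 157 in WT wing, 259.6 in WT leg, 46.1 in gland and 73.3 in EcR-RNAi wing and a fold of 1.10 (SE 0.23, adjusted p = 0.0002) in the authors' deposited table. Leg was highest at this site and EcR-RNAi wing stood between WT wing and gland. In the vvl interval, chr3L:6824139-6824680 was the only call of 18 in this comparison, with a level of 218 in WT wing, 229.9 in WT leg, 60.9 in gland and 108 in EcR-RNAi wing and a fold of 1.02 (SE 0.20, adjusted p = 3.55e-05) in the authors' deposited table. The other 5 were between drm and CG43815 (1.00), between CG15258 and CG44869 (1.06), beside CG9380 at the end of 2R (1.11), between Ir41a and TpnC41C (1.20) and beside rl, the ERK kinase gene (1.46), as folds in the authors' deposited table. The first of these lay 17331 bp from drm and 10456 bp from CG43815.

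The calls higher in EcR-RNAi wing lay mostly near arm ends or in proximal 2R. Of the 10, 9 belonged to the 28 far regions near arm ends, on 4 or on 2R below 6 Mb, and 8 were also called higher in gland than in each WT disc. The same 28 regions held 3 of the 9 calls higher in WT wing. Without them 1 call higher in EcR-RNAi wing and 6 higher in WT wing were left. As that set was chosen after the data were seen, these counts only describe where the calls lay. On X, 3 lay between SteXh:CG42398 and CG17636, where chrX:61208-62984 had a level of 33.7 in WT wing, 38.6 in WT leg, 192 in gland and 659 in EcR-RNAi wing and a fold of -4.29 (SE 0.23, adjusted p = 4.44e-68) in the authors' deposited table. EcR-RNAi wing was highest, gland next, and the WT discs lowest. The far region with the highest mean normalized count, chrX:57784-59485 in the same interval, had a level of 649.6 in WT wing, 743 in WT leg, 200.2 in gland and 1064 in EcR-RNAi wing. Between mthl8 and CG43149 on 3L, chr3L:39986-40985 and chr3L:41774-42005 have a fold of wing over leg listed at 0, so no fold is given. Both were higher in EcR-RNAi wing, with adjusted p = 2.58e-10 and 6.27e-07, and higher in gland than in wing, with adjusted p = 7.47e-10 and 5.8e-07, in the authors' deposited table. Beside CG9380, chr2R:25285290-25285924 had a level of 52.8 in WT wing, 43.2 in WT leg, 184 in gland and 277 in EcR-RNAi wing, with a fold of -2.39 (SE 0.55, adjusted p = 0.000201) in the authors' deposited table. Both far regions between CG3107 and gus were called, with folds of -1.76 and -2.06 in the authors' deposited table. At chr4:1306188-1306788, beyond Cadps, a gene of dense-core vesicle release, the level was 134 in WT wing, 133 in WT leg, 26.7 in gland and 303 in EcR-RNAi wing and the fold -1.18 (SE 0.18, adjusted p = 1.39e-08) in the authors' deposited table. The only call away from these places was chr3L:18276182-18276767, between CheA75a and CG5103, with -1.08 (SE 0.21, adjusted p = 5.51e-05) in the authors' deposited table. The EcR-RNAi discs were the only group labelled yw/yw with transgenes, so the background of the stock and the depletion of EcR cannot be told apart in these calls. The part of the possibly different gland stock in the shared calls was not tested.

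**Figure D5:**
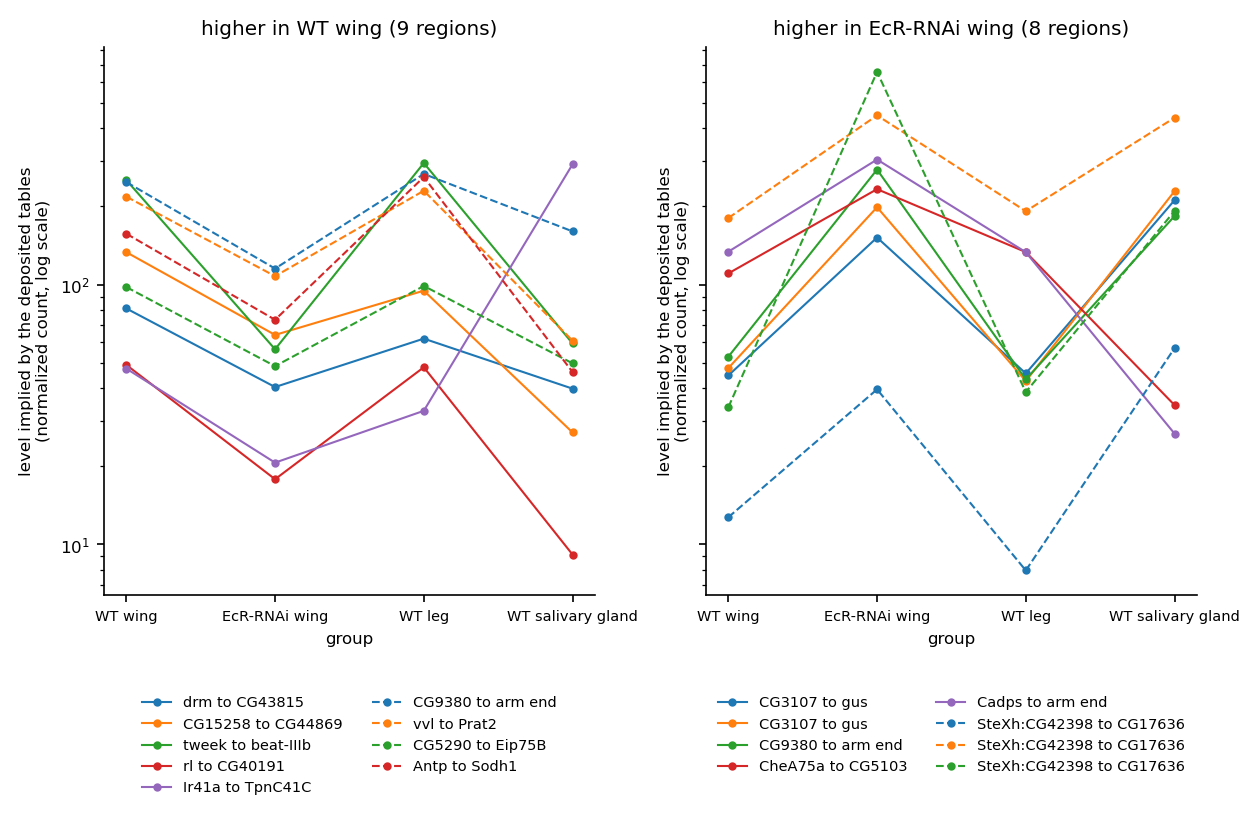
Level in each group (x axis) derived from the authors' deposited tables, in normalized counts on a log axis (y axis), for the far regions called between WT and EcR-RNAi wing, each line 1 region named by its interval. Left, the 9 higher in WT wing; right, 8 of the 10 higher in EcR-RNAi wing, without the 2 between mthl8 and CG43149, where no level is given. On the right, gland is above both WT discs in 6 of 8 lines, and Cadps and CheA75a are the exceptions.

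Beyond distance from coding genes, the far regions shared few annotated features. Inside a listed non-coding gene lay 93, of which 92 were in long non-coding RNA genes and 1 in a tRNA gene, and 53 more were under 1 kb from one. The lncRNA gene CR32773 held 12 over 3 intervals: in the pair of intervals that flank bi 5 of 5 and 2 of 3 were higher in wing than in gland, and from CG12684 to peb, a zinc finger gene, 2 of 4 were higher in gland. CR46006 in the Or67d interval held 10, with 1 call each way between wing and gland, and CR44833, beside ovo, a zinc finger gene of epidermal shape, held 8, with 5 higher in wing and 7 higher in leg than gland. All 6 in CR44917, beside tsh, were higher in wing than gland. The 219 far regions at least 10 kb from every listed gene held 8 of the 9 calls for WT wing and all 10 for EcR-RNAi wing in that comparison, 8 of the 52 wing calls and 13 of the 33 leg calls. A microRNA gene was under 5 kb from 10 far regions: 4 near mir-276a or mir-276b in the Or67d interval, 3 near mir-317 between Alp13 and Fmr1, 2 near mir-280 beside pdm3 and 1 near mir-10 between the Hox genes Dfd and Scr.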

How the data were processed

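FAIRE-seq libraries of 4 groups of 2 were compared. Per the submitters' processing notes, the tools were MACS2 2.1.2, R 3.5.2, DESeq2 (no version), Bowtie2 2.3.4.1, bedtools 2.26, Picard 2.2.4 and SAMtools 1.9, on dm6. Their order and settings are not given here. The authors deposited 1 merged peak list per group, with a score, a fold enrichment (ratio) and a −log10 q-value per peak. The authors also deposited 4 comparison tables over 13008 regions, with a mean normalized count (a signal over all 8 libraries), a log2 fold change, its SE, a test statistic (score), and p-values before and after adjustment. No refit was possible, the depth of each library is unknown, and precision is that of the SEs (median 0.22 or 0.23 at far regions). Nothing in the labels says that the libraries of a group are separate crosses, so an adjusted p reflects only how far these libraries scatter, perhaps for technical reasons.

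Computation used Python 3.11.15, pandas 2.3.3 and scipy 1.17.1. The distance rule was tested on made-up genes and the centring of folds on simulated data. The calls themselves were read from the deposited values and had no such test. Distances run from the region centre to the nearest of 13946 protein-coding gene bodies in RefSeq's gene list for dm6, which has no strand, exons or sequence; introns, UTRs, sequences and motifs were not analysed here. Coordinates are those of the deposited tables. The 3 folds among wing, leg and gland closed to within 4.1e-08, so group levels were solved from the mean count and the folds, taking the mean as that of 4 equal groups. Folds look moderated: fold over SE differed from the statistic by over 5% at 5, 9, 3 and 0 called far regions of wing against gland, leg against gland, WT against EcR-RNAi and wing against leg. An adjusted p was missing at 18 far regions in wing against leg and 12 in WT against EcR-RNAi; these were never called. Centred folds had p recomputed from fold and SE.

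Named regions are, per comparison and direction, the 6 largest folds among calls with a mean count of at least 120.2 (the median of all regions; any count if fewer than 3), the 10 intervals with most far regions, calls beside listed genes (up to 5 per list), the extremes, and those next to the 10 kb limit; others are said to be chosen after their values were seen or belong to an interval whose counts are given. Of 334 listed genes in 11 lists, 331 were in the gene table. The regions and lists were chosen with earlier results of these data known.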

Additional observations from a re-analysis of the deposited data

Results flagged for a closer look

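Merged peaks also lay far from genes outside every region the authors compared, in data that no comparison above used. There were 583 such peaks of 1162 far peaks in WT wing, 430 of 989 in WT leg, 457 of 1011 in EcR-RNAi wing and 85 of 179 in gland. No control sample applies to them. Their median fold enrichment, the authors' own value per peak, was 2.72 in WT wing against 4.84 for the far peaks that overlap a compared region, 2.77 against 4.87 in WT leg, 2.59 against 3.99 in EcR-RNAi wing and 3.37 against 4.33 in gland. Far peaks made up 4.03% of the WT wing peaks of the kept arms, 3.77% of the WT leg peaks, 5.54% of the EcR-RNAi wing peaks and 1.08% of the gland peaks. Only the gland list has a size range in its name, and the part of this in the gland share was not tested.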

How the results depend on the processing

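No paired analysis was possible because the deposited tables hold no value per library; for the same reason no library could be left out. The alternatives change limits or subsets and could not turn the sign of a call. Counts that moved by more than 1.5 times, and shares that moved beyond their 95% interval or by more than 1.5 times, were as follows. Without a fold limit the calls were 101 for wing and 66 for leg, and 70 for WT and 24 for EcR-RNAi wing. At a log2 fold of at least 1.5 wing had 7 and leg 16 against each other, wing 160 and leg 158 against gland, gland 23 against wing and 24 against leg, and WT 1 over EcR-RNAi wing. An adjusted p under 0.001 left 5 for WT over EcR-RNAi wing, as did centring. A mean count of at least 70.8 left 14 and 16 gland calls against wing and leg. Without the regions near arm ends, on 4 or on 2R below 6 Mb, chosen after seeing the data, there were 19, 23 and, for EcR-RNAi wing, 1. A limit of 5 kb gave 1089 regions, with 49.5% higher in wing than gland and 1.12% called for EcR-RNAi wing over WT; 20 kb gave 182, with 1.14% higher in leg than wing, 59.9% higher in wing than gland, 4.40% higher in gland than leg and 2.79% higher in EcR-RNAi wing. Distance from every listed gene gave 219 regions, with 3.79% higher in wing than leg, 49.3% and 8.68% higher in wing and gland, 9.59% higher in gland than leg, and 3.72% and 4.65% higher in WT and EcR-RNAi wing. Peaks with a −log10 q of at least 10 covered 76.6%, 71.2%, 4.86% and 63.2% of far regions in WT wing, WT leg, gland and EcR-RNAi wing; the overlap rule changed no share beyond its interval. The cause of these changes was not tested beyond what each limit removes. Calls rest on 2 libraries per group, and folds of low-count regions have the larger SEs.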
